A study of Arabidopsis thaliana with 6 samples.

Results

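UPB1 and 4 class III peroxidase genes, AT2G34060, AT2G18980, AT3G01190 and AT2G37130, were followed in Arabidopsis thaliana root tips, as 5 of 13333 genes that could be named on the array. The platform's probe table gave 1 probe set for each of them, so that no choice between probe sets was needed: 260527_at for UPB1 (AT2G47270), 256713_at for AT2G34060, 266941_at for AT2G18980, 259276_at for AT3G01190 and 265471_at for AT2G37130. They were chosen with the difference between the genotypes on these arrays in view. Their genotype differences are therefore given as a description and not as a test, and no size was set for entering the group. AT4G11290 and AT4G30170, class III peroxidase genes outside it, differed by -1.21 and -0.91 on the log2 scale, about as far as its members.

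The quadruple mutant carried athb8-11, cna-2, phb-13 and phv-6, alleles of 4 transcription factor genes of the HD-ZIP III class, whose proteins join a homeodomain to a leucine zipper, and the wild type was Col er-2, which carries the er-2 allele of the ERECTA receptor kinase gene. REV, the remaining HD-ZIP III gene, is not among the mutated genes, and the labels do not say whether the mutant also carries er-2. Seedlings of 4 days after germination were untreated and grew upright at 22 °C with 18 h light and 6 h dark. A replicate pooled about 200 hand-cut primary root tips of 0.5 mm, and each genotype had 3 Affymetrix ATH1 arrays, called biological replicates by the submitters. Each value is a log2 signal of 1 probe set on 1 array.

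Class III peroxidases are secreted haem enzymes of plants. They use hydrogen peroxide to cross-link phenolics in the cell wall, which stiffens it, and can also form reactive oxygen species that loosen it. UPB1 (UPBEAT1) is a basic helix-loop-helix transcription factor of the Arabidopsis root tip that is known as a repressor of peroxidase genes. Through them it acts on the balance of superoxide and hydrogen peroxide, which goes with the passage of cells from division in the meristem to elongation. HD-ZIP III factors pattern the vascular tissue of the root. In pieces of whole tissue, fewer cells of a type and less RNA per cell cannot be told apart.

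Before any gene was considered, replicate 1 had the lowest value of each genotype on the first principal component of all probe sets. This component held 41.4% of the variance. Mutant replicate 1 lay at -11.4 and Col er-2 replicate 1 at -28.1, and the other arrays lay between -0.96 and 18.5. Mutant replicate 1 lay nearer to Col er-2 replicate 2, at -0.96, than to Col er-2 replicate 1. Array medians lay between 5.587 and 5.593 in the mutant and between 5.558 and 5.571 in Col er-2, without overlap. PHV, the mutated gene that could be named, had signals of 4.64, 4.93 and 4.66 in the mutant, against 5.49, 5.80 and 5.68 in Col er-2, and the arrays did not overlap. Where its probes lie relative to the lesion is not known here, so this is a limited check of the genotype.

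UPB1 had log2 signals of 6.25, 4.76 and 5.54 on mutant arrays 1, 2 and 3, against 7.48, 6.61 and 5.25 on Col er-2 arrays 1, 2 and 3. Its highest array was replicate 1 in each genotype, and Col er-2 replicate 3 lay below mutant replicates 1 and 3, so that the genotypes overlapped. The means were 5.52 ± 0.74 in the mutant and 6.44 ± 1.12 in Col er-2 (SD, n = 3 each), a difference of -0.93 with a standard error of 0.55. This difference of the means is smaller than the spread among the Col er-2 arrays, which ran over 2.23 log2 units. Without replicate 1 of both genotypes the difference was -0.77. It was -0.41 without Col er-2 replicate 1, -0.55 without mutant replicate 2 and -1.52 without Col er-2 replicate 3.

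**Figure D1:**
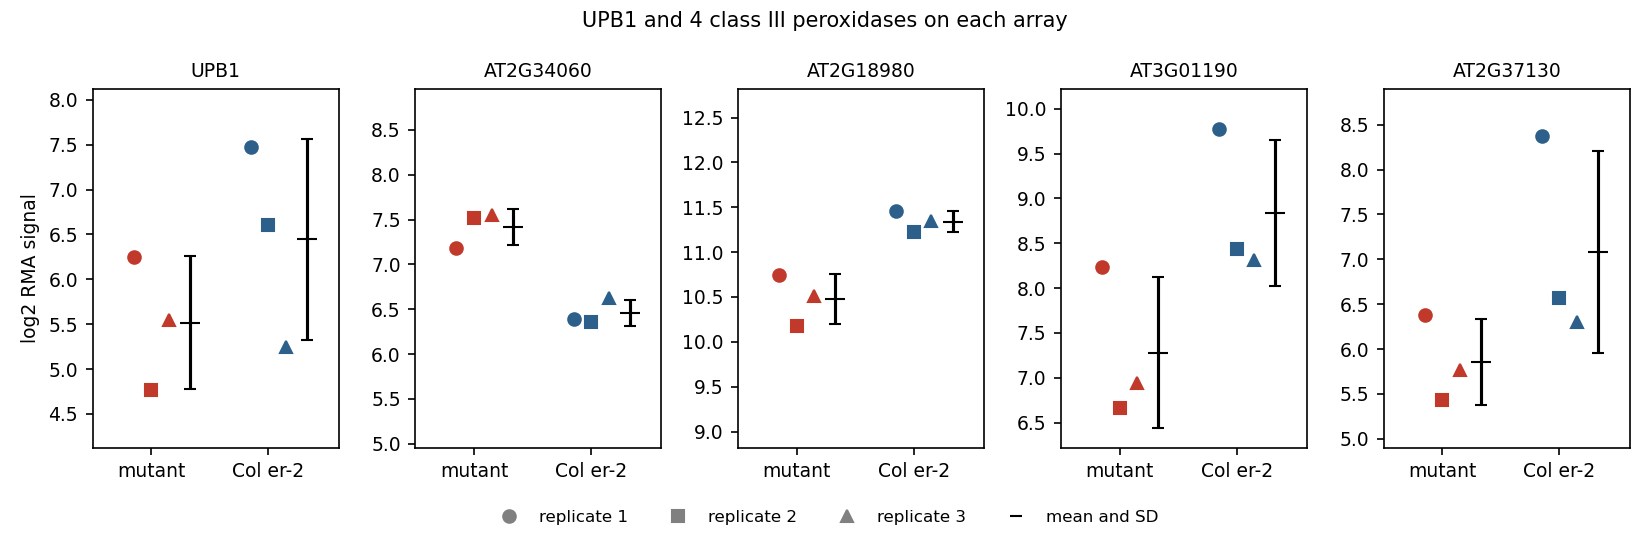
Log2 signal (y axis, 4 units in each panel) of UPB1 and of the 4 peroxidase genes in the quadruple mutant (red) and Col er-2 (blue), with a marker shape for each replicate number and the mean with its SD (n = 3) in black. AT2G34060 is higher on the mutant arrays, AT2G18980 and AT3G01190 are lower, and UPB1 and AT2G37130 overlap between the genotypes.

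AT2G34060 was the only chosen gene with a higher mean in the mutant. Its signals were 7.18, 7.52 and 7.55 on the mutant arrays, against 6.39, 6.36 and 6.62 on the Col er-2 arrays. Every mutant array lay above every Col er-2 array, by at least 0.56, and the arrays of a genotype lay within 0.37 of each other. The means were 7.42 ± 0.20 in the mutant and 6.46 ± 0.15 in Col er-2 (SD, n = 3 each), which is a difference of 0.96 with a standard error of 0.12, or 1.94-fold in signal. Unlike the other chosen genes, it was not highest on replicate 1 in either genotype. The gene lies on chromosome 2 near the mutated PHB, with 75 protein-coding genes between them in the order of the TAIR10.1 gene table. Of the 38 genes between them that could be named, 2 were higher and 2 lower on every mutant array than on every Col er-2 array, where the shares over all probe sets were 7.55% and 5.57%. Their differences ran from -0.34 to 0.39, and 0 passed the limma threshold used for the whole table. Whether a chromosome segment that travels with phb-13 plays a part was not tested beyond these values.

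AT2G18980 was lower in the mutant, at 10.74, 10.18 and 10.51, against 11.46, 11.22 and 11.34 in Col er-2. The genotypes did not overlap and were at least 0.48 apart. The means of 10.48 ± 0.28 in the mutant and 11.34 ± 0.12 in Col er-2 (SD, n = 3 each) differed by -0.86 with a standard error of 0.14. This corresponds to a signal 1.82-fold lower in the mutant. Its Col er-2 arrays had the smallest SD of the 5 genes, and with any 1 array left out its difference stayed between -0.995 and -0.71.

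AT3G01190 showed the largest difference of the chosen genes and a wide spread within each genotype. Its signals were 8.24, 6.66 and 6.94 on mutant arrays, against 9.78, 8.43 and 8.32 on Col er-2 arrays. The genotypes did not overlap, but the highest mutant array, replicate 1, was only 0.08 below the lowest Col er-2 array, replicate 3. Means of 7.28 ± 0.84 in the mutant and 8.84 ± 0.81 in Col er-2 (SD, n = 3 each) differed by -1.56 with a standard error of 0.48, a signal 2.95-fold lower in the mutant. Replicate 1 was the highest array of both genotypes, and without both of these arrays the difference was -1.57.

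AT2G37130 had signals of 6.38, 5.43 and 5.76 on mutant arrays, against 8.37, 6.57 and 6.30 on Col er-2 arrays. Mutant replicate 1 lay just above Col er-2 replicate 3, so that the genotypes overlapped. The means of 5.86 ± 0.48 in the mutant and 7.08 ± 1.13 in Col er-2 (SD, n = 3 each) differed by -1.22 with a standard error of 0.50. Much of that came with Col er-2 replicate 1. Without that array the difference was -0.58, and without replicate 1 of both genotypes it was -0.84.

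In the fit over all probe sets with limma, 0 of these 5 genes passed a Benjamini-Hochberg adjusted p under 0.05, where 6 of 22746 probe sets did (0.0264%). At an unadjusted p under 0.05 there were 1698 probe sets (7.47%). Mutant arrays all lay above Col er-2 arrays for 1 of the 5 genes and all below for 2, where the shares over all probe sets were 7.55% and 5.57%, or 13.1% in either direction. Since the genes were chosen on this contrast, nothing is read from these counts.

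UPB1 was then followed against each peroxidase across the arrays. Of the 4 chosen peroxidases, AT2G37130 had the order of arrays most like that of UPB1. Both were highest on Col er-2 replicate 1, next highest on Col er-2 replicate 2 and lowest on mutant replicate 2, and they differed only in the order of mutant replicate 3 and Col er-2 replicate 3. Pearson's r over the 6 arrays was 0.904 and Spearman's rho 0.943. Without the 2 arrays farthest from the UPB1 median, Col er-2 replicate 1 and mutant replicate 2, Pearson's r was 0.639, so that a good part of the relation rests on them. AT2G39040, a peroxidase outside the group, had the same rho of 0.943 with UPB1, an r of 0.899, and an r of 0.805 without the same 2 arrays. These are descriptions of arrays that share genotype and replicate number, and genes were chosen with these values in view.

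For AT3G01190, AT2G18980 and AT2G34060 the genotypes did not overlap, though for AT3G01190 the gap was only 0.08. No r over all arrays is therefore given for them, and deviations from the genotype mean were compared in its place. Replicate 1 was above the genotype mean by 0.73 in the mutant and 1.03 in Col er-2 for UPB1, and by 0.96 and 0.94 for AT3G01190. Among the other arrays, UPB1 was higher on mutant replicate 3 than on replicate 2 and on Col er-2 replicate 2 than on replicate 3, and AT3G01190 kept that order in both genotypes. The deviations of AT3G01190 and UPB1 correlated at 0.853 (Pearson) and 0.829 (Spearman) over 6 arrays, which after removing the means leave 4 independent values. For AT2G37130 the same measures were 0.876 and 0.829. Outside the group they were 0.937 and 0.943 for AT2G39040 and 0.851 and 0.829 for AT4G30170, so that these likenesses were not particular to the chosen genes.

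AT2G18980 followed UPB1 less far. Its deviations correlated with those of UPB1 at 0.629 (Pearson) and 0.657 (Spearman). On Col er-2 replicate 3, where UPB1 was at its lowest for that genotype, AT2G18980 stood at its genotype mean. AT2G34060 ran the other way, with deviations that correlated at -0.787 (Pearson) and -0.771 (Spearman). It was lowest on replicate 1 in the mutant, where UPB1 was highest, and highest on replicate 3 in Col er-2, where UPB1 was lowest. Its other extremes did not mirror UPB1. In the mutant it was highest on replicate 3, at 7.55 against 7.52 on replicate 2, where UPB1 was lowest. In Col er-2 it was lowest on replicate 2, at 6.36 against 6.39 on replicate 1, where UPB1 was highest. Outside the group, Pearson's r of deviations was negative too for AT5G24070 (-0.811), AT5G40150 (-0.744), AT3G28200 (-0.735) and AT2G43480 (-0.632). It was positive for the rest of the other peroxidases above the median signal of all probe sets. The opposite run was thus not particular to AT2G34060.

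**Figure D2:**
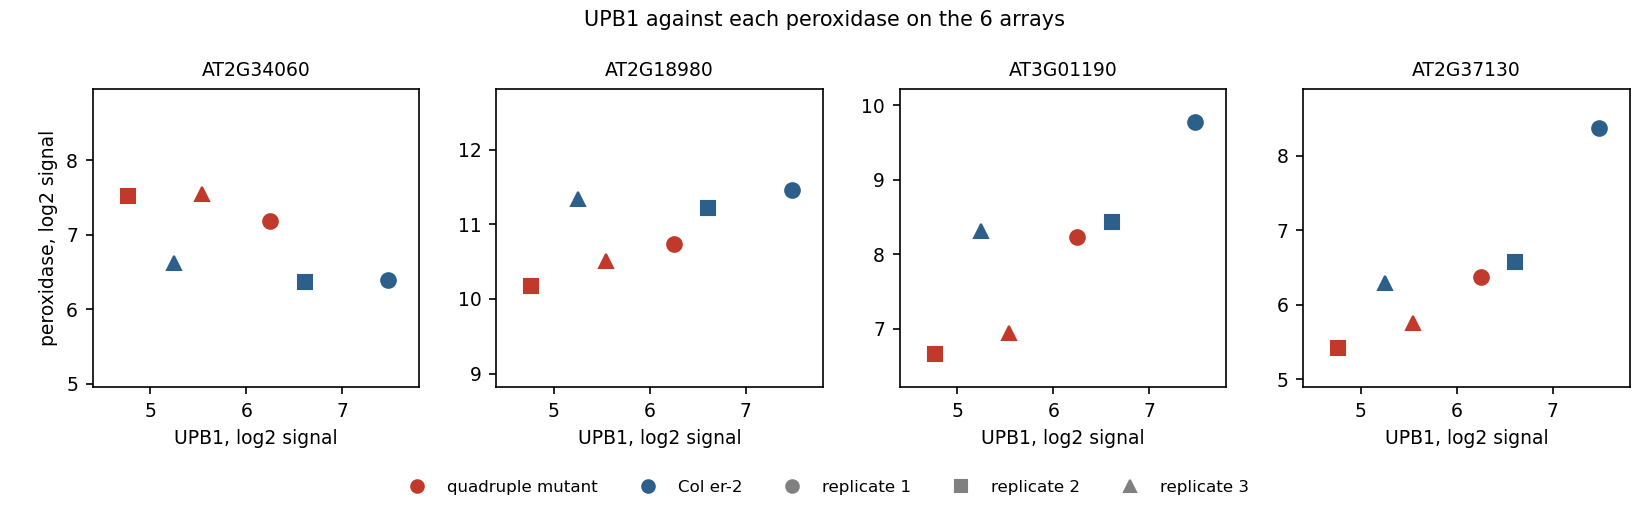
Log2 signal of each peroxidase gene (y axis) against that of UPB1 (x axis) on the 6 arrays, with colour for genotype and marker shape for replicate number. AT3G01190 and AT2G37130 are high where UPB1 is high, with replicate 1 at the upper end in each genotype. AT2G34060 separates by genotype, and is low on the Col er-2 arrays both where UPB1 is high and where it is low.

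In both genotypes replicate 1 was the highest array for 4 of the 5 genes, all but AT2G34060. Over all probe sets this held for 11.6%, and for 16.9% of those above the median signal of 5.57. It held for 11 of the 51 other named class III peroxidases (21.6%), and for 6 of the 12 of them with a mean signal above that median. AT3G21770 and AT5G64100 belong to these 12 only through their higher Col er-2 signals, so nothing about the genotypes is read from the 12. For AT5G64100, Col er-2 replicate 1 was at 7.14 and the other arrays between 5.28 and 5.58, so that array brought it into the 12. Nothing about replicate 1 is therefore read from the 6 of 12. The 6 were AT2G39040, Prx37 (AT4G08770), AT4G11290, AT4G30170, AT5G17820 and AT5G64100. Of the same 12, 4 had replicate 1 as the lowest array in both genotypes, namely AT2G43480, AT3G28200, AT5G24070 and AT5G40150. The 5 genes were chosen with values on these arrays in view, so nothing is read from the 4 of 5. The part of replicate number in the differences was not tested.

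**Figure D3:**
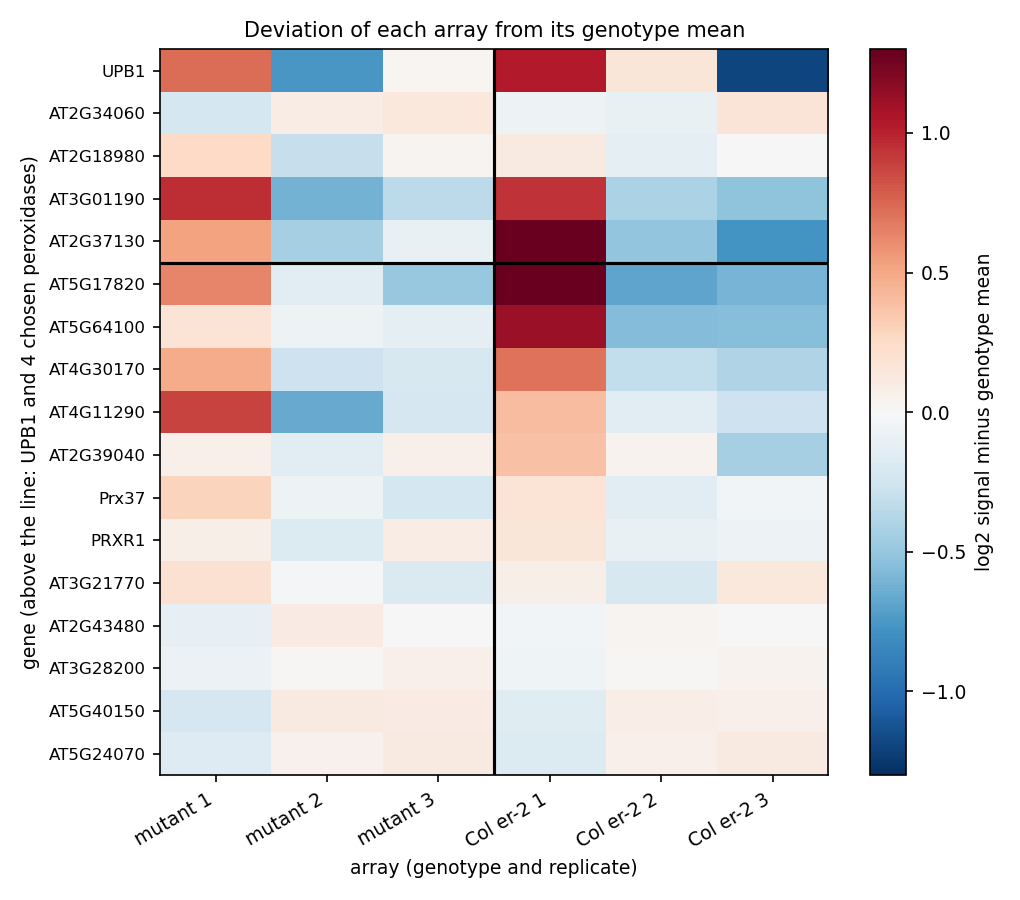
Log2 signal minus the genotype mean (colour) on each array (x axis) for UPB1, the 4 chosen peroxidases and the 12 other peroxidases with a mean signal above the median of all probe sets (y axis). Replicate 1 is red in both genotypes for UPB1, AT3G01190, AT2G37130, AT5G17820, AT4G30170 and AT4G11290, and pale or blue for AT2G34060, AT5G24070 and AT5G40150.

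The wider peroxidase family was read from a list of 73 loci, written from general knowledge and not checked against a family table, of which 55 could be named by a probe set of their own, the 4 chosen genes and 51 others. Of the 51 others, 0 passed the limma Benjamini-Hochberg threshold in either direction, where over all probe sets 0.0176% passed as higher and 0.00879% as lower. At an unadjusted p under 0.05 there were 3 higher and 7 lower, where the shares over all probe sets were 4.21% and 3.26%. Mean signals were lower in the mutant for 32 of the 51 (62.7%), where the share over all probe sets was 47.4%. This held for 38 after each array was centred on its median and for 26 without replicate 1 of both genotypes, where the shares over all probe sets were 55.9% and 46.0%. The median difference was -0.03 for the 51, against 0.01 for all probe sets. Most of the 51 were dim, with 39 not above the median signal, and a table without detection calls does not tell low expression from none.

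AT4G11290 is, from general knowledge not checked here, a reported target of UPB1, and had the most negative difference of the others. Its signals were 8.03, 6.50 and 6.93 in the mutant, against 8.77, 8.23 and 8.10 in Col er-2. The genotypes did not overlap, and replicate 1 was again the highest array in each. The difference of -1.21 had a standard error of 0.36 and a limma Benjamini-Hochberg adjusted p of 0.464. Without replicate 1 of both genotypes it was -1.45.

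AT5G17820 and AT4G16270 are the other peroxidase genes reported as UPB1 targets. AT5G17820 stood at 6.30, 5.52 and 5.17 in the mutant, against 7.64, 5.68 and 5.76 in Col er-2, so that Col er-2 replicate 1 set most of the difference of -0.70. Without that array it was -0.06, and without replicate 1 of both genotypes -0.38 (limma adjusted p with all arrays = 0.828). AT4G16270 was dim, at 4.64, 5.04 and 4.90 in the mutant, against 5.40, 5.03 and 5.34 in Col er-2. It differed by -0.40 (limma adjusted p = 0.544), and by -0.22 without replicate 1. All 3 reported targets thus had lower means in the mutant, 0 of 3 passed the threshold, and every mutant array lay below every Col er-2 array in 1 of 3. Over all probe sets 47.4% had a lower mean, 0.00879% passed as lower and 5.57% had all mutant arrays below.

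AT4G30170 had signals of 10.30, 9.55 and 9.61 in the mutant, against 11.43, 10.41 and 10.33 in Col er-2. The genotypes were separate, with mutant replicate 1 just below the lowest Col er-2 arrays, and the difference of -0.91 (limma adjusted p = 0.547) was -0.55 without Col er-2 replicate 1. AT5G64100 stood at 5.58, 5.33 and 5.28 in the mutant, against 7.14, 5.45 and 5.46 in Col er-2. Here a single array, Col er-2 replicate 1, stood out, and the difference of -0.62 was -0.06 without it. Prx37, highest on replicate 1 in each genotype, differed by -0.27 with overlapping genotypes, by -0.42 without mutant replicate 1 and by -0.16 without mutant replicate 3.

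Other peroxidases were lower in the mutant without a high replicate 1 in both genotypes. AT3G21770 was at 5.53, 5.33 and 5.15 in the mutant, against 6.11, 5.82 and 6.17 in Col er-2. AT5G24070 was at 7.27, 7.49 and 7.55 in the mutant, against 7.81, 8.05 and 8.10 in Col er-2. Neither gene overlapped between the genotypes, and their differences of -0.70 and -0.55 had the smallest adjusted p among the others that were lower, 0.211 and 0.270 with limma. AT3G28200 differed by -0.27 with separate genotypes, and the dim AT1G30870 by -0.41, or -0.18 without Col er-2 replicate 1 and -0.70 without Col er-2 replicate 2.

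On the higher side, AT1G71695 had signals of 5.62, 5.26 and 5.34 in the mutant, against 5.08, 4.78 and 4.55 in Col er-2. The genotypes were separate, and the difference of 0.61 had a limma adjusted p of 0.369. AT2G43480 averaged 9.25 ± 0.11 in the mutant and 8.96 ± 0.04 in Col er-2 (SD, n = 3 each), again without overlap, and differed by 0.29 (limma adjusted p = 0.463). AT2G22420 differed by 0.44 with overlapping genotypes, and its mean signal, like that of AT1G71695, was not above the median. The next in order, AT5G19890, AT2G41480, AT4G31760, AT5G40150 and AT4G33870, differed by 0.07 to 0.13. Of these, only AT5G40150 had a mean signal above the median. AT2G39040 differed by -0.11, or 0.08 without Col er-2 replicate 1, and PRXR1 (AT4G21960) by 0.02, or -0.01 after median centring.

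**Figure D4:**
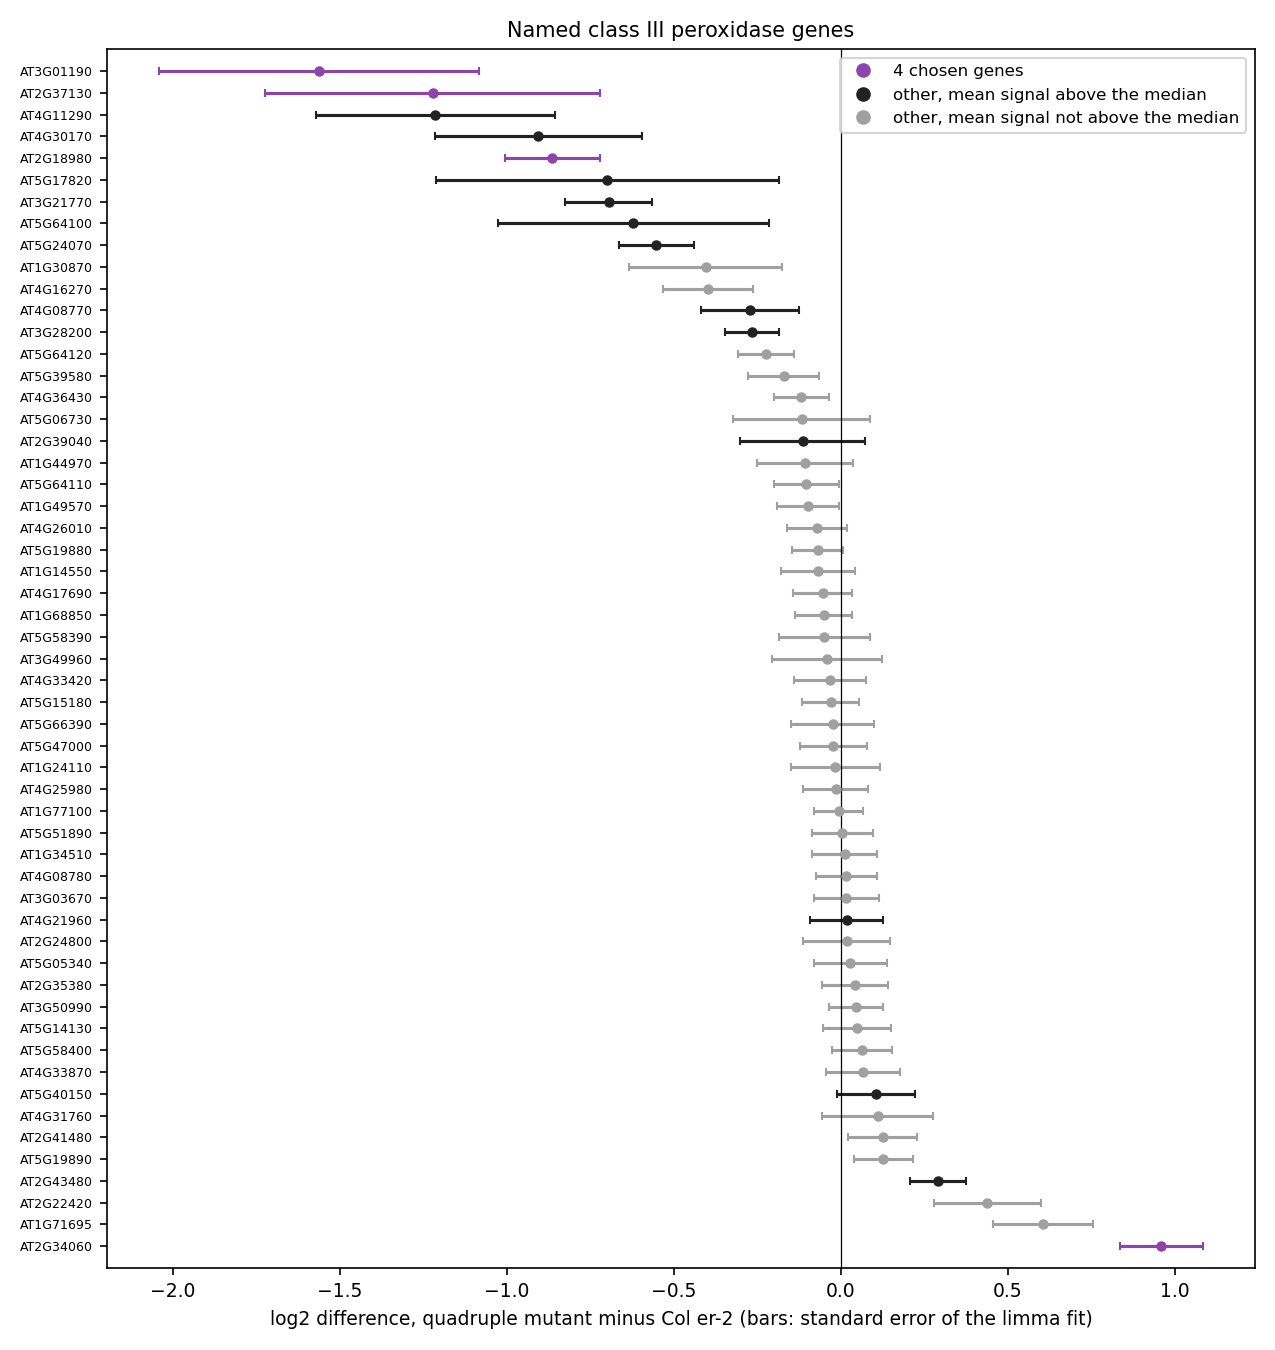
Log2 difference, quadruple mutant minus Col er-2 (x axis), with its standard error from the limma fit for each of the 55 named class III peroxidase genes (y axis), ordered by the difference. The chosen genes (purple) lie at both ends, and other genes with a mean over all arrays above the median signal are black. Most genes not above it (grey) gather near 0, but AT1G71695, AT2G22420, AT1G30870 and AT4G16270 lie farther out.

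Other genes that make or remove reactive oxygen species were read from lists. NADPH oxidases, which make superoxide outside the cell, had 3 of 10 named and 0 past the limma threshold: AT1G19230 differed by -0.06, AT4G25090 by 0.05 and AT4G11230 by 0.09, all dim. Of 11 catalases and ascorbate peroxidases, which remove hydrogen peroxide inside the cell, 2 were named and 0 passed. SAPX, the stromal ascorbate peroxidase, differed by -0.11, and TAPX, the thylakoid one, by 0.27. Of 23 lignin and Casparian strip genes 1 was named, HCT, an enzyme of the monolignol pathway, which differed by -0.12 and did not pass. Superoxide dismutases had 0 of 7 named here.

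Markers of root tissues were read beside these values. Mean log2 signals of 2 of 5 cortex and endodermis markers ran from 6.94 to 7.24 on mutant arrays and from 6.79 to 7.08 on Col er-2 arrays, with AT1G62500 at a difference of 0.57 and JKD at -0.14. AT1G62500 was higher on every mutant array, at 7.85, 8.15 and 8.30, than on any Col er-2 array, at 7.48, 7.74 and 7.37. The root cap marker AT1G65570, 1 of 5, ran from 8.70 to 9.19 in the mutant and from 7.95 to 8.73 in Col er-2, a difference of 0.43, which was 0.18 without Col er-2 replicate 2, 0.27 without mutant replicate 3 and 0.65 without replicate 1 of both genotypes. Of 7 root hair and epidermis markers 2 were named, EXPA7 at -0.17 and EXPA18 at -0.11, and their mean ran from 4.41 to 4.47 in the mutant and from 4.37 to 4.71 in Col er-2. EXPA7 was at 4.58, 4.53 and 4.64 in the mutant, against 4.82, 4.67 and 4.77 in Col er-2, without overlap. The phloem marker OPS, 1 of 4, ran from 4.71 to 4.83 in the mutant and from 4.43 to 4.85 in Col er-2, a difference of 0.19. Green tissue markers, 2 of 4, ran from 5.15 to 5.36 in the mutant and from 5.25 to 5.86 in Col er-2, with RCA at -0.33 and LHCB4.1 at -0.22, or -0.12 and -0.075 without Col er-2 replicate 3. RCA was at 4.79, 4.99 and 4.95 in the mutant, against 5.04, 5.02 and 5.67 in Col er-2, without overlap. Of the 8 named markers, 1 was thus higher and 2 lower on every mutant array, where the shares over all probe sets were 7.55% and 5.57%. EXPA7, EXPA18, OPS and RCA had mean signals below the median of all probe sets. The nearest RCA arrays of the genotypes were close, at 4.99 and 5.02. None of 8 xylem markers was named, 0 of the named markers passed the limma threshold, and the part of tissue makeup in the peroxidase differences was not tested.

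The genes whose pattern over the 6 arrays was most like that of UPB1 were sought among the 133 named genes whose SD over all arrays was at least 0.496, which is 50% of that of UPB1. AT2G25450, which encodes a dioxygenase that modifies glucosinolate side chains, had the highest Pearson's r, 0.981, with signals of 8.48, 7.51 and 7.81 in the mutant, against 9.40, 8.47 and 7.77 in Col er-2. AT4G35750 and AT5G02580 followed at 0.948 and 0.943. Of the peroxidases among the 133 whose genotypes overlapped, AT2G37130 was at place 7, AT5G17820 at 49 and AT5G64100 at 52 in this order. The lowest r were those of AT3G48460 (-0.966), UGT78D1 (-0.770), which encodes a flavonol glycosyltransferase, and AT1G47530 (-0.757). With so few arrays, 8 of the 133 genes had an r above 0.9, and these likenesses are descriptions only.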

How the data were processed

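The authors deposited 1 table of log2 signals for 22810 probe sets on 6 arrays. The submitters' processing notes name the tools Affymetrix Expression Console, RMA and limma, but no version or use. From these names and from how the values are distributed, they were taken as RMA log2 signals, background corrected and quantile normalized. Such scaling hides a shift shared by most genes and compresses differences of dim probe sets. The genome build is not given in the sources used here.

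Without 64 control probe sets, 22746 were compared as mutant minus Col er-2 with limma 3.58.1 in R 4.3.3 (lmFit, eBayes, 3 arrays a genotype), with Benjamini-Hochberg adjustment over all of them and a threshold of 0.05. Standard errors come from that fit. It was also run on simulated arrays with independent errors, without the likeness between first replicates found here. Nothing about these standard errors is read from that run. Names came from the platform's probe table, updated through the TAIR10.1 gene table: 13513 probe sets named 1 gene, 503 several and 8730 none, and 13484 of the 13513 had a locus. The probe set with the highest mean stood for a gene. The number of arrays limits the precision, and arrays have no read depth.

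The members and lists were chosen with earlier results of these data known, and the lists of family loci, markers and reported UPB1 targets were written from general knowledge. Named were the 5 genes, the 8 highest and 8 lowest other peroxidases, the reported UPB1 targets, up to 3 members of each other list, up to 2 of each marker list, and the 3 genes most and 3 least like UPB1. Other bright peroxidases were named after their values were seen. Other settings were leaving out single arrays, a block for the replicate number, median centring, repeated quantile normalization, a filter on dim probe sets (under the 35th percentile of mean signal), trend and robust options and array weights. Leaving out both replicates 1 was added later. Promoter motifs and protein sequences were planned and are not analysed here.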

Additional observations from a re-analysis of the deposited data

How the results depend on the processing

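The differences of the 5 chosen genes kept their sign in the 10 alternatives that could move them; the replicate block, the dim filter and the trend and robust options leave a mean difference as it is. With 1 array left out they ran from -1.52 to -0.41 for UPB1, 0.89 to 1.08 for AT2G34060, -0.995 to -0.71 for AT2G18980, -2.04 to -1.09 for AT3G01190 and -1.61 to -0.58 for AT2G37130. Leaving out arrays could not turn the sign for AT2G34060, AT2G18980 and AT3G01190, whose genotypes did not overlap. The genes were also chosen on this contrast, so nothing is read from the kept signs. Calls depended on the setting. Of 22746 probe sets, 6 were called in the fit used above, 109 with the replicate block and 11 with quantile normalization repeated. There were 27 with trend and robust options, 22 with array weights and 19 at an adjusted p under 0.1. Leaving out 1 array gave 1 to 8, and leaving out replicate 1 of both genotypes gave 4. Of the 4 chosen peroxidases, 0 were called with all arrays and 3 with the replicate block. Trend and robust options called 2 (AT2G34060 and AT2G18980), array weights 1 (AT2G34060) and leaving out replicate 1 of both genotypes 1 (AT3G01190). Since these 4 genes were chosen on this contrast, nothing is read from their calls. Of the 51 others, 0 were called with all arrays and 3 with the replicate block (AT4G11290, AT4G30170 and AT5G24070). The cause was not tested. Deviations from the genotype mean correlated between replicates of the same number at 0.504, 0.065 and 0.176, so the numbers do not establish pairs. The median difference of the 51 others was -0.067 to -0.013 with 1 array left out, -0.017 without replicate 1, -0.057 with median centring, -0.0095 with array weights and -0.12 over those left by the filter on dim probe sets (13 of them lower). Of the other genes named, 9 turned sign, none of them called. With 1 array or both replicates 1 left out they ran from -0.33 to 0.078 for AT2G39040 (0.043 without replicate 1), -0.032 to 0.105 for PRXR1 (-0.0073 with median centring), -0.049 to 0.162 for AT4G33870, -0.027 to 0.26 for AT4G31760, -0.20 to 0.010 for SAPX, -0.296 to 0.027 for HCT, -0.27 to 0.011 for EXPA18, -0.399 to 0.27 for AT1G47530 and -0.43 to 0.84 for UGT78D1; the cause was not tested. The planned change of promoter window was not run, since promoters were not analysed.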

Other observations

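Some peroxidases share a probe set, so that their signals cannot be told apart. The probe set of AT4G37530 and AT4G37520 had signals of 6.87, 5.02 and 5.67 in the mutant, against 7.50, 6.22 and 6.32 in Col er-2, with replicate 1 the highest array of each genotype. It differed by -0.83 (limma, Benjamini-Hochberg adjusted p = 0.774). The probe sets of AT2G38390 with AT2G38380, of AT2G18150 with AT2G18140 and of AT3G42570 with AT3G17070 were dim and differed by -0.17, -0.12 and -0.18.

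AT2G18980, AT2G37130 and UPB1 lie on chromosome 2, as AT2G34060 does, but farther from PHB. Between AT2G37130 and PHB there are 259 protein-coding genes in the order of the TAIR10.1 gene table. Of these, 108 were named here, with a median difference of -0.0057. AT2G18980 lies nearer to ERECTA than to PHB, with 773 protein-coding genes between, against 1671. The 354 named genes between AT2G18980 and ERECTA had a median difference of -0.0026. Whether a segment near ERECTA plays a part was not tested.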
